A study of Homo sapiens with 4 samples.

Results

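The TAL1 core regulatory circuit is a set of 10 transcription factors and adaptor genes of T-cell leukaemia, TAL1, LYL1, TCF3, TCF12, LMO1, LMO2, GATA3, RUNX1, ETS1 and MYB, which were picked by gene name from the 50868 genes listed in the files. RNA-seq had been done on Jurkat cells, an established wild-type human T-lymphoblast line from a T-cell leukaemia, in 1 library for each of 4 conditions. The cells received the vehicle DMSO, 0.5 μM JQ1, DMSO together with 150 ng/ml PHA, or 0.5 μM JQ1 together with 150 ng/ml PHA, each for 24 h. JQ1 displaces BET bromodomain proteins from acetylated chromatin, and phytohemagglutinin (PHA) is a plant lectin that stimulates T cells through their surface receptors. The comparisons ask how the levels of the circuit genes differ with JQ1, with PHA, and with both.

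TAL1 is a basic helix-loop-helix factor of blood stem cells and red cell precursors that is normally silent in maturing T cells and is switched on in many T-cell leukaemias. It binds E-box DNA only as a dimer with an E protein (TCF3 or TCF12), and LMO1 or LMO2, with LDB1, bridges this dimer to GATA3 on neighbouring sites. In TAL1-positive leukaemia cells, TAL1, GATA3, RUNX1, ETS1 and MYB bind each other's regulatory elements as an interconnected loop, and Jurkat is a classic model of it.

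Of the 10 genes, 7 had a mean of at least 1 FPKM over the libraries (fragments per kilobase of gene length, scaled to the library total), as did 11503 of all genes. LMO1, LMO2 and LYL1 fell below that limit. With no replicate in any condition, the conditions could not be tested against each other and every difference rests on a single pair of libraries. For single genes, the log2 ratio of their shares of the library totals is followed by its 95% interval (exact, Clopper-Pearson), which covers counting error only. Counts over all genes use the FPKM ratio after adding 0.1 to both values, with 2-fold as the threshold. In bulk RNA, fewer cells with a transcript and less transcript per cell cannot be told apart.

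Library totals ranged from 18620954 to 19685401 counts, so that 3 counts, the floor used here, were 0.152 to 0.161 when scaled to a common total as CPM, and mitochondrial genes took 6.27% to 7.07% of the counts. The circuit genes together took between 0.211% of the counts, in the DMSO library, and 0.280%, in the DMSO + PHA library. All 10 T-cell markers examined were above 1 FPKM on average, with a summed level of 652 FPKM in DMSO, 518 in JQ1, 933 in DMSO + PHA and 596 in JQ1 + PHA. Of the T-cell markers, 4 of 10 were at least 2-fold lower with JQ1 without PHA, beside 8.65% of all genes. With PHA 6 of 10 were, beside 8%. None was at least 2-fold higher, where 5.22% and 3.69% of all genes were. The part of this shift of the T-cell markers in the values of the circuit genes was not tested. Among markers of other cells, MS4A1 and PAX5 of B cells, HBB, GATA1 and KLF1 of red cells, and LYZ, CSF1R, MPO and SPI1 of myeloid cells had at most 3 counts in every library, as had EPCAM of epithelia and COL1A2 and DCN of fibroblasts. Other markers were above that floor in a library, with at most 6 counts for CD14 of myeloid cells, 5 for HBA1 of red cells, and 21 and 16 for the epithelial keratins KRT8 and KRT18. COL1A1, which carried the fibroblast list, had 92 counts in DMSO, 129 in JQ1, 137 in DMSO + PHA and 163 in JQ1 + PHA. The summed level was at most 0.103 FPKM for the myeloid list, 0.162 for the erythroid list, 0.198 for the epithelial list and 0.675 for the fibroblast list. CD79A, a B-cell receptor subunit that some T-cell leukaemias also express, carried the B-cell list, at 7.48 FPKM in DMSO, 1.06 in JQ1, 6.33 in DMSO + PHA and 1.01 in JQ1 + PHA. HEXIM1, whose transcript BET inhibitors raise in many cells, had a JQ1 log2 ratio of 1.58 (1.52 to 1.65) without PHA and one of 1.59 (1.53 to 1.66) in its presence.

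The 250 bases before the RefSeq transcription starts (GRCh38.p14) were searched on both strands for short forms of the sequences that circuit factors are known to bind. The forms were GATAA (reverse TTATC) for GATA factors, CANNTG for the E-boxes of TAL1 and the E proteins, TGTGGT (reverse ACCACA) for RUNX1, CCGGAA (reverse TTCCGG) for ETS factors and AACNG for MYB. Windows were found for 8 of the 10 genes, 18 windows in all. The windows shown are those of TAL1, after which the circuit is named, and of RUNX1 and MYB, which were respectively higher and lower in both JQ1 libraries than in the libraries without JQ1. Capitals mark matches of the first 4 forms, none of which overlap one another, and each window is written 5′ to 3′ on the strand of its gene, the minus strand for TAL1 and RUNX1 and the plus strand for MYB. None of the 4 windows shown touches an annotated exon of its gene in GENCODE release 44.
TAL1, outer start, chr1:47232336-47232585: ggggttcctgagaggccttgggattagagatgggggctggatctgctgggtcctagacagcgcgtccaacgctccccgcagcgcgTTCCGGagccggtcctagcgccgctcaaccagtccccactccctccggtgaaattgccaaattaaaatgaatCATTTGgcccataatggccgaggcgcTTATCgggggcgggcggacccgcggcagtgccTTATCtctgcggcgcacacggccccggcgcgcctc
TAL1, inner start, chr1:47231716-47231965: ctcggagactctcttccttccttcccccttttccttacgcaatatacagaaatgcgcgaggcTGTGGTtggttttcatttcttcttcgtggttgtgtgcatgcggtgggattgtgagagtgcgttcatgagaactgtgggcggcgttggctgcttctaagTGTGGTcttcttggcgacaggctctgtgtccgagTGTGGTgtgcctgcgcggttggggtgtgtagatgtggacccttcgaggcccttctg
RUNX1, chr21:34888700-34888949: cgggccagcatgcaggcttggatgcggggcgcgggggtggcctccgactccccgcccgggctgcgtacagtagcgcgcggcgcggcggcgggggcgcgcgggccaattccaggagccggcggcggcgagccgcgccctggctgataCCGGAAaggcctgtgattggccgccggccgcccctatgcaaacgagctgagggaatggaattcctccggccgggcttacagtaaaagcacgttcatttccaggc
MYB, chr6:135181058-135181307: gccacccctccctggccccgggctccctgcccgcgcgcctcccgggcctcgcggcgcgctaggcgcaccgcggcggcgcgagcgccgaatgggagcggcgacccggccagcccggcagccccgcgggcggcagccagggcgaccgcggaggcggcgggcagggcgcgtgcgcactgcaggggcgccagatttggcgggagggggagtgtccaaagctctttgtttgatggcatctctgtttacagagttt

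The outer TAL1 window held 2 GATAA matches, both in the reverse form, that begin 67 and 35 bases before the start. Among the 35116 windows of all genes, 20.4% held at least 1 such match and 3.87% held 2 or more. The same TAL1 window held 1 CANNTG match, a form found at least once in 61.8% of all windows, and 1 CCGGAA match, found in 14.5%. The inner TAL1 window held 3 TGTGGT matches, at 188, 90 and 56 bases before the start, where 10.98% of all windows held at least 1 and 0.0769% held 3 or more. All 18 windows of the circuit genes were searched for every form, and these shares make no allowance for that. The RUNX1 window held a CCGGAA match 104 bases before its start. That start is an inner one, within the listed span of RUNX1 (chr21:34787801-36004667), and no window was found at the outer end. The MYB window held none of the 4 marked forms. Nor did the LMO1 and TCF3 windows and some of the GATA3 and TCF12 windows, which are not shown. The short AACNG form was in 70.6% of all windows. These matches describe letters in the windows, and no binding was measured here.

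Across the libraries, ETS1 had the highest mean level of the circuit genes at 44.2 FPKM, followed by RUNX1 at 38.3, MYB at 21.0, TAL1 at 19.9, TCF12 at 16.3, GATA3 at 7.83 and TCF3 at 3.91 FPKM. LMO1 followed at 0.753 FPKM, LMO2 at 0.0630 and LYL1 at 0.0200 FPKM. The order of ETS1 and RUNX1, of MYB and TAL1, and of GATA3 and TCF3 differed between libraries. RUNX1 was above MYB in every library, though close in DMSO at 25.7 and 25.3 FPKM. TAL1 was above TCF12 and LMO1 below TCF3 in every library. The order also rests on the gene lengths behind the FPKM, which were 1.23 to 3.01 times the union of the annotated exons. With that union as the length, an alternative chosen after seeing the data, TAL1 and TCF12 changed places and so did RUNX1 and MYB.

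**Figure D1:**
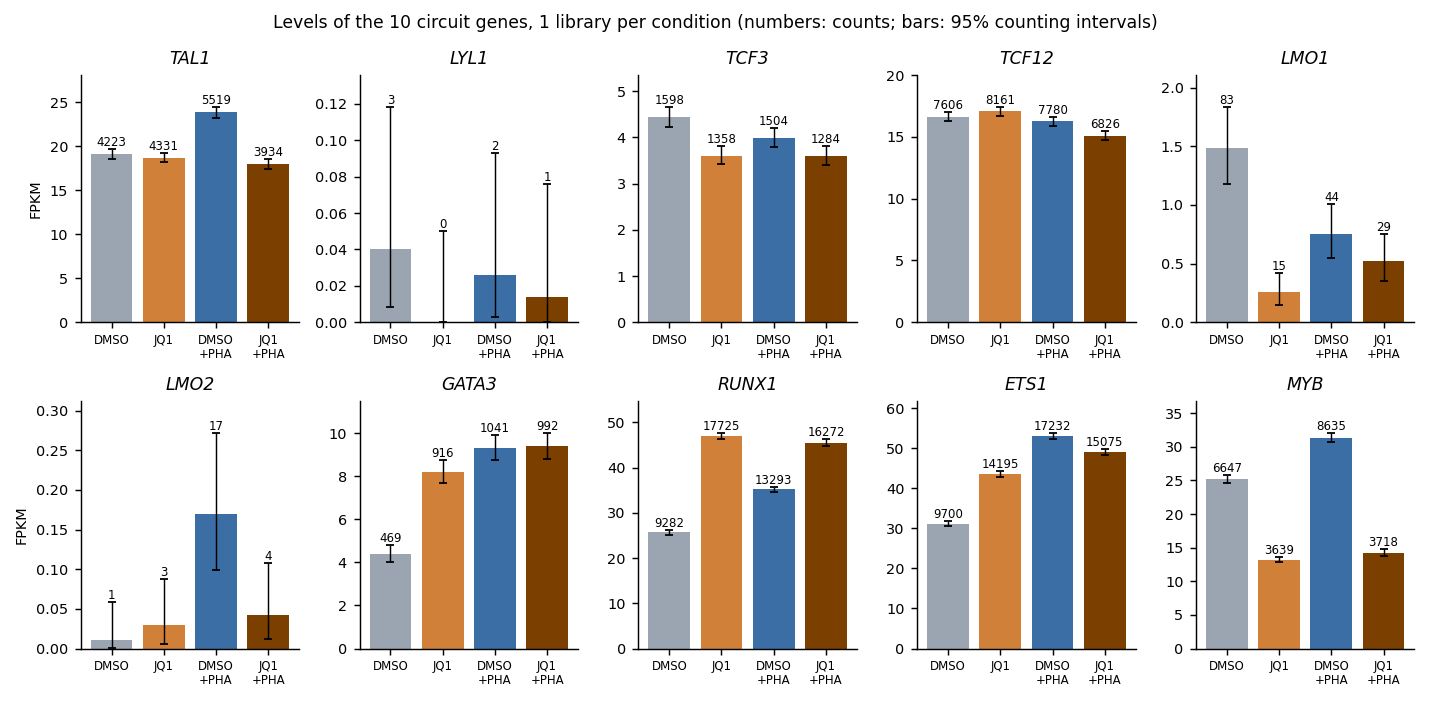
Level of each circuit gene in FPKM (vertical axes from 0, on a scale of its own for each gene) in the 4 libraries (horizontal axis). Numbers over the bars are counts, and error bars are 95% intervals of counting error in the 1 library of each condition. TAL1 is highest in the DMSO + PHA library at 23.8 FPKM, MYB is low in both JQ1 libraries, and LYL1 and LMO2 rest on at most 3 and 17 counts.

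TAL1 (ENSG00000162367, GRCh38 chr1:47216290-47232220, minus strand) was expressed in every library and differed little with JQ1 alone. Its level was 19.1 FPKM in DMSO, 18.7 in JQ1, 23.8 in DMSO + PHA and 18.0 in JQ1 + PHA, from 4223, 4331, 5519 and 3934 counts. The DMSO + PHA library was thus the one that stood above the others. The log2 ratio with JQ1 was −0.03 (−0.09 to 0.03) in the absence of PHA and −0.41 (−0.47 to −0.35) in its presence, where the level was 1.33-fold lower. The ratio without PHA turned to 0.04 when FPKM were rescaled to a common total. With PHA, TAL1 was 1.25-fold higher than without it among DMSO-treated cells (log2 0.32, 0.26 to 0.38), and the same ratio was −0.06 (−0.12 to 0.00) under JQ1. The JQ1 ratio with PHA minus that without PHA was −0.38 (−0.47 to −0.29), which is beyond counting error.

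LYL1 (ENSG00000104903, chr19:13099033-13103161, minus strand), a close relative of TAL1 that is activated in other T-cell leukaemias, was at or under the floor throughout. It had 3 counts in DMSO, 0 in JQ1, 2 in DMSO + PHA and 1 in JQ1 + PHA, so no fold is given. TAL1 was therefore the member of this pair that was detected above the floor in Jurkat cells.

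TCF3 and TCF12 encode E proteins, the dimer partners of TAL1, and both moved little. TCF12 (ENSG00000140262, chr15:56918623-57299281, plus strand) had 16.6 FPKM in DMSO, 17.1 in JQ1, 16.3 in DMSO + PHA and 15.1 in JQ1 + PHA. TCF3 (ENSG00000071564, chr19:1609290-1652605, minus strand) had 4.44, 3.61, 3.99 and 3.60 FPKM in the same order. No library of either gene stood 1.5-fold from another. TCF12 had a JQ1 log2 ratio of 0.04 (−0.01 to 0.08) without PHA and of −0.11 (−0.16 to −0.06) with PHA. TCF3 was lower with JQ1 both without PHA, at −0.30 (−0.40 to −0.19), and with PHA, at −0.15 (−0.26 to −0.04), and these ratios differed by 0.15 (−0.00 to 0.30). The FPKM of TCF12 exceeded that of TCF3 in each library, by 3.75-fold (3.55 to 3.96) with DMSO and by 4.73-fold (4.47 to 5.01) with JQ1. These intervals leave out the choice of gene length. With the union of annotated exons as length, TCF12 and TCF3 had 42.8 and 13.3 FPKM with DMSO, and 43.9 and 10.8 with JQ1.

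LMO1 and LMO2 are LIM-only adaptors that carry no DNA-binding domain of their own, and either can serve in the TAL1 complex. LMO1 (ENSG00000166407, chr11:8224304-8268716, minus strand) was the one above the floor in every library, with 83 counts in DMSO, 15 in JQ1, 44 in DMSO + PHA and 29 in JQ1 + PHA, or 1.48, 0.256, 0.751 and 0.523 FPKM. The DMSO library was highest and the JQ1 library lowest. LMO1 was 5.79-fold lower with JQ1 without PHA (interval 3.31 to 10.8), whereas with PHA its log2 ratio of −0.52 (−1.25 to 0.19) was within counting error. PHA went with a lower level in DMSO-treated cells, −0.98 (−1.54 to −0.44), and a higher one in JQ1-treated cells, 1.03 (0.08 to 2.04). The JQ1 ratios with and without PHA differed by 2.00 (0.89 to 3.16) on the log2 scale. At this level LMO1 stayed under the 1 FPKM limit and is not among the genes counted past 2-fold.

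LMO2 (ENSG00000135363, chr11:33858576-33892289, minus strand) had 1 count in DMSO, 3 in JQ1, 17 in DMSO + PHA and 4 in JQ1 + PHA. The DMSO + PHA library held most of its counts. With PHA, the ratio of DMSO-treated cells was 16.2 (2.55 to 679), an interval that shows how little 1 count can fix. With JQ1 in the presence of PHA, the log2 ratio was −2.01 (−4.04 to −0.39), and without PHA both libraries were at or under the floor. LMO1 had 4.43 times the FPKM of LMO2 (2.48 to 8.26) in the DMSO + PHA library and 12.4 times (4.35 to 48.5) in the JQ1 + PHA library.

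GATA3 (ENSG00000107485, chr10:8053604-8075198, plus strand), a zinc-finger factor that T-cell development requires, was lowest in the DMSO library. It had 4.40 FPKM in DMSO, 8.21 in JQ1, 9.33 in DMSO + PHA and 9.40 in JQ1 + PHA, from 469, 916, 1041 and 992 counts. The 3 treated libraries lay close together above the DMSO library. Its level was 1.87-fold higher with JQ1 (1.67 to 2.09) and 2.12-fold higher with PHA in DMSO-treated cells (1.90 to 2.37). In the presence of PHA, the log2 ratio of JQ1 was 0.01 (−0.12 to 0.14), and the JQ1 ratio with PHA minus that without PHA was −0.89 (−1.10 to −0.68).

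RUNX1 (ENSG00000159216, chr21:34787801-36004667, minus strand), a core-binding factor of blood and T-cell development, was higher in both JQ1 libraries. Its level was 25.7 FPKM in DMSO, 46.9 in JQ1, 35.2 in DMSO + PHA and 45.5 in JQ1 + PHA. With JQ1 it was 1.83-fold higher without PHA (1.78 to 1.87) and 1.29-fold higher with PHA (1.26 to 1.32), a difference of log2 ratios of −0.50 (−0.55 to −0.45). The log2 ratio with PHA was 0.45 (0.41 to 0.49) in DMSO-treated cells, against −0.04 (−0.07 to −0.01) in JQ1-treated cells. Hence the DMSO library was lowest for RUNX1, as for GATA3, and the JQ1 libraries differed little from each other.

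ETS1 (ENSG00000134954, chr11:128458761-128587558, minus strand), an ETS factor abundant in lymphocytes, was also lowest in the DMSO library. It had 31.2 FPKM in DMSO, 43.6 in JQ1, 52.9 in DMSO + PHA and 49.0 in JQ1 + PHA. The log2 ratio with JQ1 was 0.48 (0.45 to 0.52) without PHA and −0.11 (−0.14 to −0.08) with PHA, and their difference was −0.60 (−0.65 to −0.55). The sign of the JQ1 ratio thus differed between the pair of libraries without PHA and the pair with PHA. The ratio with PHA was small, between −0.11 and −0.05 under the alternatives run, and variation between libraries was not measured. Under DMSO, the log2 ratio with PHA was 0.76 (0.73 to 0.80), and under JQ1 it was 0.17 (0.13 to 0.20).

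MYB (ENSG00000118513, chr6:135181315-135219173, plus strand), a proto-oncogene factor of immature blood cells, was lower in both JQ1 libraries. It had 25.3 FPKM with DMSO and 13.2 with JQ1, and 31.4 with DMSO + PHA and 14.3 with JQ1 + PHA, from 6647, 3639, 8635 and 3718 counts. Both JQ1 libraries lay below both libraries without JQ1. MYB was 1.91-fold lower with JQ1 without PHA (1.83 to 1.99) and 2.20-fold lower with PHA (2.11 to 2.28), and the log2 ratios differed by −0.20 (−0.28 to −0.12). The FPKM of MYB was 1.32 times that of TAL1 with DMSO (1.27 to 1.38) and 0.706 times with JQ1 (0.676 to 0.738). With PHA the same ratio was 1.32 without JQ1 (1.27 to 1.36) and 0.795 with JQ1 (0.760 to 0.831). These intervals leave out the choice of gene length. With the union of annotated exons as length, MYB and TAL1 had 64.3 and 39.3 FPKM with DMSO and 33.6 and 38.6 with JQ1. On that length they had 79.8 and 49.1 FPKM with DMSO + PHA, and 36.3 and 37.0 with JQ1 + PHA.

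**Figure D2:**
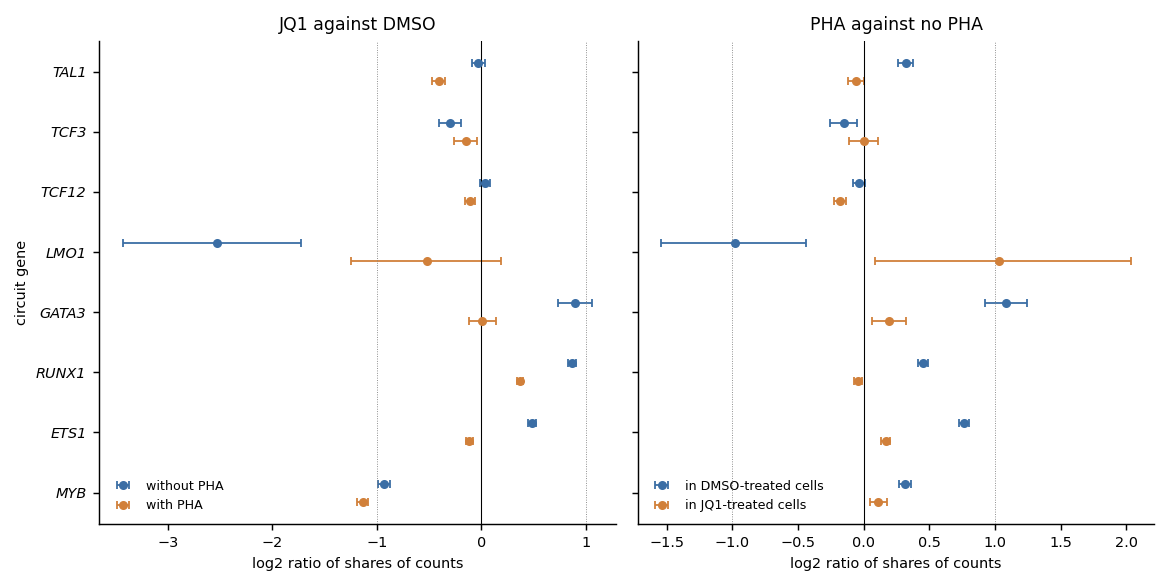
Log2 ratios of shares of counts (horizontal axes) for 8 circuit genes, with JQ1 against DMSO on the left and PHA against no PHA on the right. Points are the ratios, bars their 95% intervals of counting error, and dotted lines 2-fold. MYB lies left of 0 in both JQ1 comparisons, whereas the JQ1 ratio of GATA3 moves from 0.90 to 0.01 with PHA and that of ETS1 from 0.48 to −0.11. LYL1 and LMO2 are left out for their low counts.

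Counted over the 7 circuit genes above the level limit, none was at least 2-fold higher or lower with JQ1 without PHA, where 5.22% of all genes were higher and 8.65% lower. With PHA, MYB was the 1 of 7 that was at least 2-fold lower and none was higher, beside 8% and 3.69% of all genes. GATA3 was the 1 of 7 that was at least 2-fold higher with PHA in DMSO-treated cells, where 2.1% of all genes were higher and 1.19% lower. In JQ1-treated cells, none of the 7 passed 2-fold with PHA, beside 1.04% of all genes higher and 1.03% lower. With 7 genes, counts of 0 or 1 are near what these shares give. The 4 comparisons share libraries in pairs and are not independent of each other.

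The interval of the log2 ratio excluded 0 for 5 of the 7 genes with JQ1 without PHA and for 6 of 7 with PHA, beside 75.6% and 72.9% of all genes. For PHA, it excluded 0 for 6 of 7 genes in DMSO-treated cells, beside 49.8% of all genes, and for 5 of 7 in JQ1-treated cells, beside 31.4%. The interval narrows as counts rise, and RUNX1 was among the 5 in JQ1-treated cells at −0.04, from 16272 and 17725 counts. None of the 7 passed 2-fold there, and the part of depth in these shares was not tested. The median log2 FPKM ratio of the 7 genes was 0.04 with JQ1 without PHA and −0.11 with PHA, where the median over all genes was −0.01 and −0.02. With PHA it was 0.32 in DMSO-treated cells and −0.00 in JQ1-treated cells, with medians over all genes of −0.01 and −0.00. Above 0 with JQ1 were 4 of the 7 without PHA and 2 with PHA. With PHA, 5 of the 7 were above 0 in DMSO-treated cells and 3 in JQ1-treated cells. As the medians over all genes were just under 0, fewer genes lay above 0 than below it in each comparison.

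ID proteins are helix-loop-helix factors without a DNA-binding region that pair with E proteins and keep them off DNA. Of the 4 ID genes, ID1, ID2 and ID3 were above the level limit, while ID4 had no counts. All 3 were at least 2-fold higher with JQ1, both without PHA, beside 5.22% of all genes, and with it, beside 3.69%. ID1 went from 10.5 FPKM with DMSO to 50.2 with JQ1, and from 10.2 to 51.8 with PHA. ID2 went from 0.611 to 3.73 FPKM, and from 0.733 to 5.53 with PHA. ID3 went from 17.0 to 61.3 FPKM, and from 22.4 to 65.7 with PHA. Without PHA, the log2 ratios of shares were 2.26 (2.11 to 2.41) for ID1, 2.61 (2.18 to 3.07) for ID2 and 1.85 (1.75 to 1.96) for ID3. These are larger than the ratio of any of the 7 circuit genes above the limit in the same comparison.

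Of 8 genes listed as targets that E proteins activate in early lymphocytes, 6 were above the limit, and all 6 had a lower level with JQ1 in both comparisons. At least 2-fold lower were 4 of 6 without PHA, beside 8.65% of all genes, and 3 of 6 with PHA, beside 8%. The median log2 FPKM ratio was −1.82 and −1.22, where that of all genes was −0.01 and −0.02. RAG1, a subunit of the recombinase that rearranges antigen receptor genes, had 42.9 FPKM in DMSO, 3.93 in JQ1, 11.8 in DMSO + PHA and 1.18 in JQ1 + PHA. Its partner RAG2 had 11.3, 2.19, 4.35 and 1.33 FPKM in the same order. Both were lower with PHA as well as with JQ1, and lowest with both. IGLL1, a surrogate light chain gene, had 715 counts in DMSO, 6 in JQ1, 625 in DMSO + PHA and 0 in JQ1 + PHA. PTCRA, which encodes the pre-T-cell receptor alpha chain and stayed under the limit, had 48, 4, 28 and 0 counts. CDKN1A, a cell cycle inhibitor and the other listed gene under the limit, went the other way with JQ1, with 46, 60, 56 and 70 counts and log2 ratios of 0.32 (−0.26 to 0.91) and 0.40 (−0.13 to 0.94) that were within counting error. Of the T-cell markers, 9 of 10 also had a JQ1 ratio below 0 in both comparisons, and the part of that shift in this list was not tested.

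Of the 7 genes listed as targets of the TAL1 circuit, 6 were above the limit. ALDH1A2, a retinoic acid-synthesising enzyme, was 6.74-fold lower in JQ1 than in DMSO and 6.73-fold lower when PHA was present, log2 ratios of −2.75 (−2.83 to −2.67) and −2.75 (−2.84 to −2.66), from 28.3 to 4.19 and from 25.3 to 3.76 FPKM. It was the 1 gene of the list at least 2-fold lower in both comparisons. Of the 6 genes, 2 were at least 2-fold lower without PHA and 1 with PHA, beside 8.65% and 8% of all genes. ARID5B, a chromatin-binding factor, had 8.91, 11.5, 17.7 and 11.4 FPKM in the DMSO, JQ1, DMSO + PHA and JQ1 + PHA libraries. Its JQ1 ratio went from 0.37 (0.28 to 0.46) without PHA to −0.63 (−0.71 to −0.55) with it. The median log2 FPKM ratio of the list was −0.60 without PHA and −0.55 with PHA, where that of all genes was −0.01 and −0.02. Of the 6 genes, 4 were below 0 and 2 above it without PHA, and 5 below and 1 above with PHA. CDK6 was higher with JQ1 in both comparisons, at log2 ratios of 0.32 (0.31 to 0.33) and 0.12 (0.10 to 0.13).

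**Figure D3:**
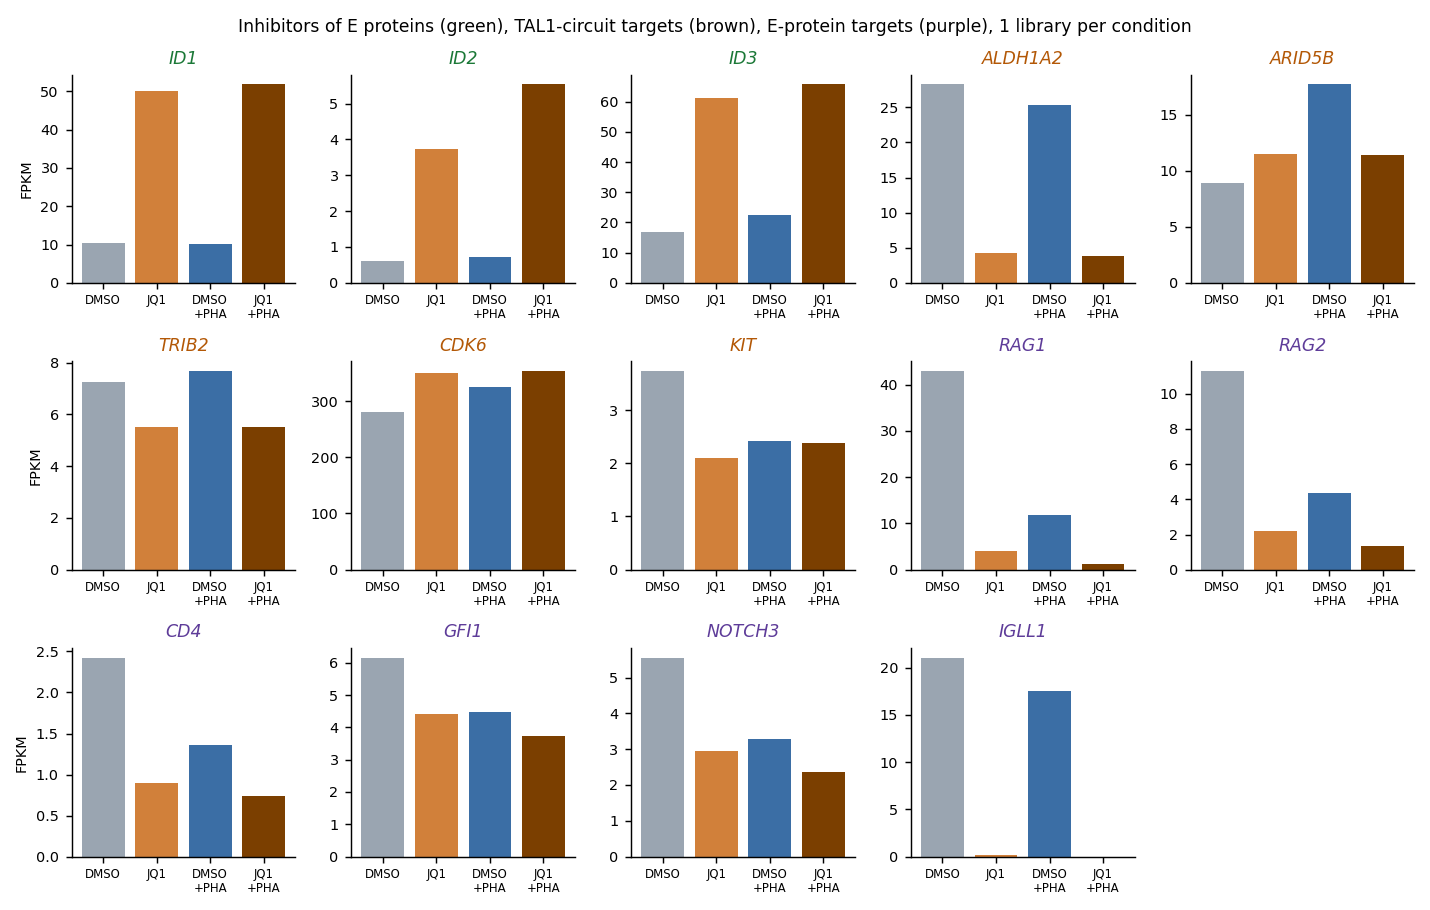
FPKM in the 4 libraries (vertical axes from 0, on a scale of its own for each gene) of 14 genes among the inhibitors of E proteins, the listed targets of the TAL1 circuit and the listed targets of E proteins above the level limit, 1 library per condition with no error bars. The 3 ID genes stand higher in both JQ1 libraries, whereas ALDH1A2, RAG1, RAG2 and IGLL1 stand lower.

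Adaptors and corepressors that join or dock on the TAL1 complex were measured as 16 genes, 14 of them above the limit. With JQ1 without PHA, 3 of the 14 were at least 2-fold higher and 2 lower, beside 5.22% and 8.65% of all genes. With PHA, 1 was higher and none lower, beside 3.69% and 8% of all genes. KAT2B, a histone acetyltransferase, was the 1 gene past 2-fold in both comparisons, at 2.46 FPKM with DMSO and 8.81 with JQ1, and at 3.26 and 8.47 with PHA. CBFA2T2 and RCOR1 were the others that were higher without PHA, and SSBP4 and CBFA2T3 (also ETO2), a corepressor bound to the TAL1 complex, were lower. LDB1, the bridge between LMO proteins and their partners, had 17.0, 24.1, 18.5 and 24.9 FPKM in the DMSO, JQ1, DMSO + PHA and JQ1 + PHA libraries, and its log2 ratio with JQ1 was 0.50 (0.40 to 0.60) in the absence of PHA and 0.42 (0.33 to 0.52) in its presence. The median log2 FPKM ratio of the 14 genes was 0.50 without PHA and 0.51 with PHA, where that of all genes was −0.01 and −0.02.

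**Figure D4:**
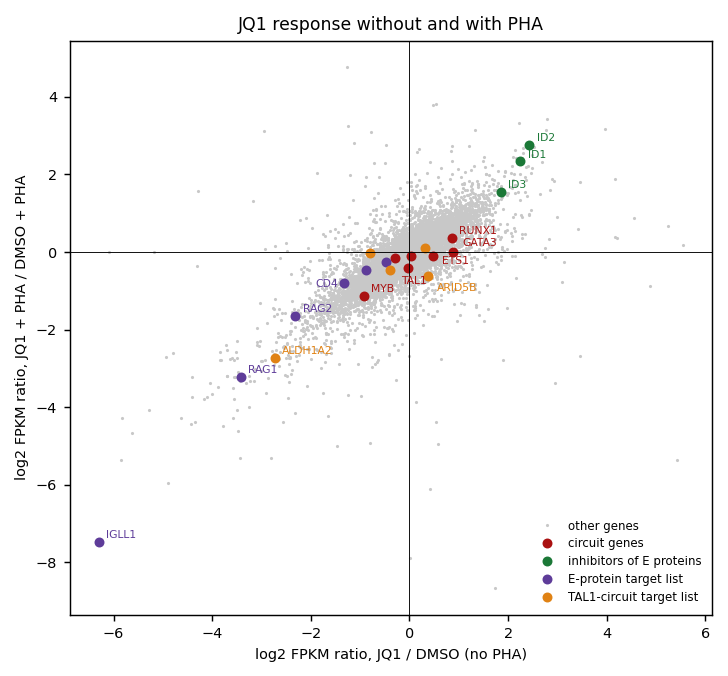
Log2 FPKM ratio of JQ1 against DMSO without PHA (horizontal axis) and with PHA (vertical axis), with 1 point for each gene that has a mean FPKM of at least 1, and coloured points for the circuit genes and 3 lists. Circuit genes lie within about 1 unit of the crossing of the axes apart from MYB at −1.13 with PHA, the ID genes lie at the upper right, and RAG1, RAG2, ALDH1A2 and IGLL1 at the lower left.

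Genes around the circuit loci were read for reads that could be shared and for the neighbours' own levels. Of 12 annotated genes that overlap a circuit gene, 2 had more than 3 counts in any library. RP1-18D14.7, a long non-coding RNA on the opposite strand within TAL1, had 3 counts in DMSO, 1 in JQ1, 2 in DMSO + PHA and 8 in JQ1 + PHA, and EZH2P1, a pseudogene within RUNX1, had 2, 4, 2 and 4. TAL1 and RUNX1 had at least 3934 and 9282 counts in every library. Of the 20 nearest flanking protein-coding genes, 4 are described here. STIL, 17.9 kb from TAL1 and fused to it by deletion in some leukaemias, had 1977 counts in DMSO, 3637 in JQ1, 1952 in DMSO + PHA and 3475 in JQ1 + PHA, so that its log2 FPKM ratio with JQ1 was 0.81 without PHA and 0.90 with PHA, unlike that of TAL1. PDZK1IP1, on the other side of TAL1, had at most 1 count. FLI1, an ETS factor beside ETS1, had 6.89, 11.7, 8.50 and 12.0 FPKM in the DMSO, JQ1, DMSO + PHA and JQ1 + PHA libraries. NFIX, 0.237 kb from LYL1, had 401 counts in DMSO, 61 in JQ1, 393 in DMSO + PHA and 74 in JQ1 + PHA.

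The genes whose profile over the 4 libraries was most like that of TAL1 were found by the root mean square distance of log2 FPKM centred on each gene's mean. GNG5, a G-protein gamma subunit, was nearest at 0.0085, with 19.3 FPKM in DMSO, 18.8 in JQ1, 24.3 in DMSO + PHA and 18.2 in JQ1 + PHA. SHPK, PHC1P1, ARMCX7P and CHMP6 followed at distances of 0.0126 to 0.0196. With 4 libraries such a profile is common, and 436 genes lay within 0.1 of TAL1.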

How the data were processed

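RNA-seq of Jurkat cells was analysed in 4 libraries, 1 per condition, as grouped by the labels. Per the labels and the study's methods, reads were aligned to GRCh38 with Hisat2 2.0.4, and the submitters' processing notes also name TopHat2 2.0.9 and Cufflinks 2.1.1 without a role. The labels name a VAHTS Universal V6 kit and the methods a VAHTS stranded mRNA-seq kit. The counting program, its strand setting and the annotation release are not given in the sources used here, so reads of antisense partners cannot be told apart. The deposited files hold raw read counts per gene, and the FPKM that the authors computed from them. No column of per-sample values was left unmapped.

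From these, log2 FPKM ratios (pseudocount of 0.1) were computed where the mean FPKM reached 1, and exact 95% intervals of ratios of shares of counts for single genes, including the difference of JQ1 ratios with and without PHA. The interval of that difference is conditional on the 4 counts. Folds used a floor of 3 counts. At totals of 18620954 to 19685401, counting error is small for all but LMO1, LMO2 and LYL1. The calculation was run on simulated counts that held counting error only, the error that the intervals assume. That run checks the arithmetic and says nothing about variation between libraries. Alternatives were other pseudocounts, filters, thresholds and scalings, with edgeR 4.0.16 and DESeq2 1.42.0 used for scaling factors only. Loci come from the deposited files, exons from GENCODE release 44, and promoter windows from RefSeq. Tools were Python 3.11.15, numpy 2.4.6, pandas 2.3.3, scipy 1.17.1, matplotlib 3.10.9 and R 4.3.3.

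Named genes were the circuit genes, HEXIM1, overlapping genes above 3 counts, nearest flanking protein-coding genes, the 5 genes closest in profile to TAL1, and from each list at most 4 genes past 2-fold the same way in both JQ1 comparisons. Values of a few listed genes are not reported here, although the counts and medians of lists keep every listed gene. Of the flanking genes, the text describes 4 of 20, picked after their values had been seen. Other list genes were likewise named after their values had been seen. The circuit genes and lists were chosen with earlier results of these data known.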

Additional observations from a re-analysis of the deposited data

Results flagged for a closer look

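In each of the following, the same contrast had opposite signs in 2 settings, with 1 library per condition, and the difference was not tested between conditions. Log2 ratios of shares of counts are given. For PHA against no PHA, LMO1 went from −0.98 in DMSO-treated cells to 1.03 in JQ1-treated cells, a difference of 2.01. RUNX1 went from 0.45 to −0.04 (difference −0.50), SSBP4 from −0.31 to 0.26 (0.58), HDAC2 from −0.15 to 0.15 (0.30) and MYBL2 from −0.10 to 0.21 (0.31).

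For JQ1 against DMSO, ETS1 went from 0.48 without PHA to −0.11 with PHA, a difference of −0.60. ELK3, an ETS-family repressor, went from −0.91 to 0.39 (1.31), ARID5B from 0.37 to −0.63 (−0.9998), CBFB, the binding partner of RUNX proteins, from 0.25 to −0.40 (−0.65) and ELF1 from 0.22 to −0.12 (−0.34).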

How the results depend on the processing

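No paired analysis was possible because each condition had 1 library and the columns carry no replicate numbers. The circuit genes past 2-fold with JQ1 without PHA went from 0 to 1 (LMO1) with a limit of 0.1 FPKM or with no level filter, and to 3 (GATA3, MYB and RUNX1) at 1.5-fold. Of all genes, 8.24% were then higher and 12.5% lower with the limit of 0.1 FPKM, 7.67% and 11.03% with no filter, and 14.8% and 19.3% at 1.5-fold. With PHA in DMSO-treated cells they went from 1 (GATA3) to 0 with a pseudocount of 1, to 2 (GATA3 and LMO2) with no filter, and to 2 (ETS1 and GATA3) at 1.5-fold, where 1.12%, 5.95% and 5.59% of all genes were higher and 0.522%, 4.26% and 3.83% lower. In both JQ1 + PHA comparisons the count stayed within 1.5 times under every alternative run. Among log2 FPKM ratios of single circuit genes, 15 of the alternative values moved by more than counting error and 265 were labelled as not moved. LYL1 in every comparison and LMO2 with JQ1 without PHA had no interval, so their values fell among the 265 whatever their size. With JQ1 without PHA, LYL1 ran from −2.34 to −0.06 and LMO2 from 0.03 to 0.97. LMO1 with JQ1 without PHA was −2.15 with the pseudocount of 0.1 and −0.98 with 1, and TAL1 went from −0.03 to 0.04 on rescaling FPKM to a common total. With PHA, TCF12 in DMSO-treated cells (−0.05 to 0.00) and TCF3 in JQ1-treated cells (−0.02 to 0.01) also crossed 0. The rest kept their sign. With JQ1 without PHA, RUNX1 lay between 0.84 and 0.94 and MYB between −0.93 and −0.86. Differences of JQ1 ratios with and without PHA moved in 2 alternative values, did not in 61, and kept their sign. Under the scalings run, the median log2 ratio of all genes lay between −0.02 and 0.06. Depth limits LMO1, LMO2 and LYL1. The causes of these shifts were not tested.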

Other observations

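Relatives of the circuit genes differed in direction from them in places. RUNX2, a RUNX1 relative, had JQ1 log2 ratios of −1.72 (−1.95 to −1.50) in the absence and −2.51 (−2.73 to −2.30) in the presence of PHA, and had 2.17 FPKM in DMSO, 0.656 in JQ1, 3.90 in DMSO + PHA and 0.683 in JQ1 + PHA. LMO4, a LIM-only relative, had 3.31, 6.69, 2.58 and 6.71 FPKM in the same order, and MYBL1, a MYB relative, 4.14, 8.02, 3.21 and 7.96. ETS2 had 39.5, 14.4, 27.4 and 13.8 FPKM. Of the 7 relatives above the level limit, none was at least 2-fold higher and 2 were lower with JQ1 without PHA. With PHA, 2 were higher and 1 lower. Of 9 other ETS factors above the limit, 1 (ETV6) was at least 2-fold lower without PHA and none with PHA. Of all genes, 5.22% were higher and 8.65% lower with JQ1 without PHA, and 3.69% and 8% with PHA.

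None of 10 transcription factor oncogenes of other T-cell leukaemias, such as TLX1, TLX3 and NKX2-1, reached a mean of 1 FPKM, where 11503 of the 50868 listed genes did. MYCN had the most counts of them, with 17 in DMSO, 11 in JQ1, 37 in DMSO + PHA and 16 in JQ1 + PHA. GATA2 and ERG, chosen after their values were seen, were low and lower with JQ1. GATA2 had 31 counts in DMSO, 3 in JQ1, 36 in DMSO + PHA and 9 in JQ1 + PHA, and ERG had 71, 5, 41 and 8.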
